A study of Mus musculus with 12 samples.

Results

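Ribosome footprints of 10 genes that code for lipid droplet proteins and for the lipases of the droplet surface were followed in mouse liver. The genes were picked by symbol for their role, with earlier results of these data known, among the 25033 entries of the deposited Ribo-seq table, and each of the 10 was found there as 1 row. They were the perilipins Plin2 and Plin5, the CIDE genes Cidea, Cideb and Cidec, the lipases Pnpla2, Lipe, Mgll and Pnpla3, and Abhd5, the coactivator of Pnpla2.

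Both groups were C57BL/6 males aged 16 weeks that had received a high-fat diet for 8 weeks. The HFD group (n = 3 Ribo-seq libraries) had the high-fat diet alone, and the LYC group (n = 3 Ribo-seq libraries) had the same diet with lycopene, the red carotenoid of tomato. So all the mice compared here were on the high-fat diet, and lycopene is the difference. For the LYC samples the label on treatment gives the high-fat diet only, and the lycopene is known from their titles, the series design and the methods of the study. The labels describe RNA and footprints as pooled before library construction, so it is not certain that 1 library stands for 1 mouse, and p-values measure the spread between these libraries only. The libraries are called HFD1, HFD2, HFD3, LYC1, LYC2 and LYC3 by the replicate numbers of the labels.

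Liver cells store triglyceride in lipid droplets, which have a core of neutral lipid under a single layer of phospholipid. Perilipins coat the droplet and hold lipases off its surface, and CIDE proteins sit where droplets touch and pass lipid from the smaller droplet to the larger. Lipolysis runs in steps: Pnpla2 (adipose triglyceride lipase) takes the first fatty acid from triglyceride with Abhd5 (CGI-58) as its coactivator, Lipe (hormone-sensitive lipase) cleaves diglyceride, and Mgll (monoglyceride lipase) frees the last one. Pnpla3, a close relative of Pnpla2, sits on the droplets of hepatocytes, and its transcription is known to follow feeding.

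A ribosome footprint is a fragment of mRNA that a ribosome shields from nuclease, so footprints on a coding sequence come largely from ribosomes that began at its start codon. The deposited values hold no positions and cover whole transcripts, so reads within UTRs are counted too. The annotated start codons of 5 genes are shown, as they mark where translation of 1 annotated transcript begins in the genes whose values the results turn on (Plin2, Cidec, Lipe and Abhd5) and the gene with an unlike context (Cideb). Each line gives 30 bases of the coding strand in GRCm38, read by RefSeq annotation, with the start codon in capitals.
Plin2, chr4:86668659-86668688, minus strand: gaggaaaaaATGgcagcagcagtagtggat
Cideb, chr14:55758272-55758301, minus strand: tccctctgcATGgagtacctttcagccttc
Cidec, chr6:113434467-113434496, minus strand: ctgacaaggATGgactacgccatgaagtct
Lipe, chr7:25388613-25388642, minus strand: tcacacagcATGgatttacgcacgatgaca
Abhd5, chr9:122351778-122351807, plus strand: gcggcggtgATGaaagcgatggcggcggag

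Each window lies within 1 exon, at the end of the 5′ UTR and the beginning of the coding sequence. Of the 9 members whose windows were read, 8 have a purine (A or G) 3 bases before the ATG, as do 82.4% of 40830 annotated mouse coding transcripts. Cideb has a t there. A G directly after the ATG is present in 5 of the 9 members and in 48.4% of the transcripts. Both features together are present in 4 of the 9 members and in 39.7% of the transcripts, and a difference from other genes was not tested.

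The LYC libraries were much shallower than the HFD libraries. The steps of the RPKM values (reads scaled by transcript length and by the total of the library) correspond to library totals of 834410 to 4405541 reads in HFD and of 311050 to 412116 reads in LYC. The reads recovered on listed genes summed to 674442 to 4096515 in HFD and to 278702 to 365737 in LYC. Small non-coding RNA genes took 2.47% to 3.94% of the HFD reads and 8.42% to 13.0% of the LYC reads that fell on listed genes. On Plin2, the gene with the highest RPKM of the set, 1 read was worth 0.120 to 0.635 RPKM in HFD and 1.29 to 1.70 RPKM in LYC. The low members therefore rest on few reads in LYC, and the part of depth in their values was not tested. For the comparison, RPKM was divided by a TMM factor (edgeR's trimmed-mean scaling between libraries), 1 was added and log2 was taken. limma's moderated test was fitted on the 5776 genes that passed a filter on low reads. A gene was called at an unadjusted p below 0.01 with an absolute log2 fold change above 1, and adjusted p-values are Benjamini-Hochberg values over the 5776 genes. By these limits 404 genes were called higher in LYC (6.99% of those tested) and 365 lower (6.32%). Scaled by total library size instead, 235 were called higher and 651 lower, and leaving out single libraries moved the counts too.

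Of the 10 members, 6 passed the filter (Plin2, Plin5, Cideb, Pnpla2, Mgll and Abhd5). None of the 6 was called by limma in either direction, where 13.3% of all tested genes were called. At an unadjusted p below 0.05, 1 of the 6 was counted (Plin2), where 29.9% of all tested genes were. edgeR's quasi-likelihood test and DESeq2 on the recovered reads, with the same filter, called none of them either, where they called 15.4% and 15.5% of all genes tested. The groups did not overlap for 2 of the 6 (Plin2 and Abhd5), and for 37.7% of all genes tested. The log2 fold change was below 0 in 4 of the 6, as in 55% of all genes tested. Their median log2 fold change was -0.33, beside -0.10 over all genes tested. The other 4 members (Cidea, Cidec, Pnpla3 and Lipe) had too few reads for the filter and were not among the genes tested. A gap between groups in whole liver may come from fewer cells of a type or from less RNA per cell, and these cannot be told apart.

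**Figure D1:**
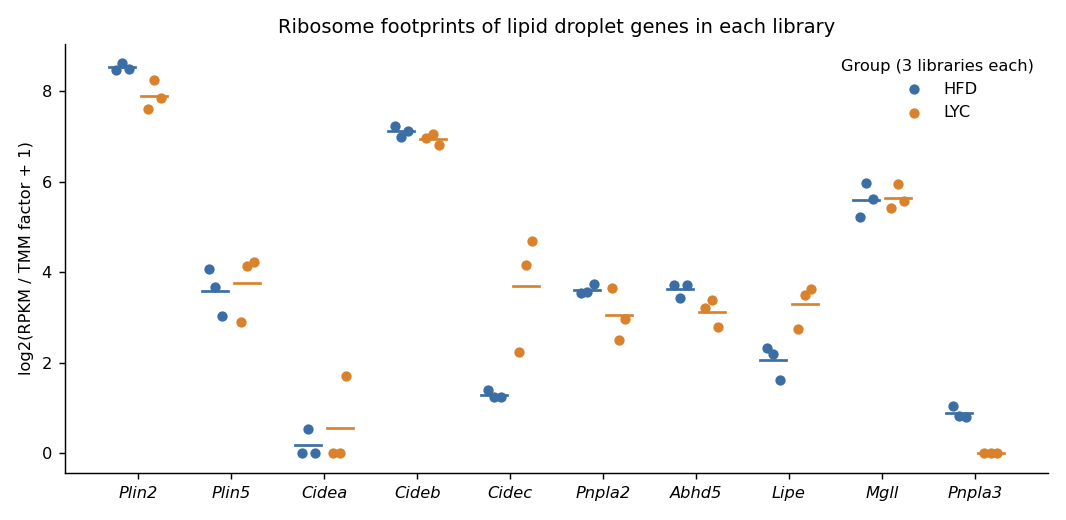
Footprints of the 10 genes in each of the 6 libraries, as log2(RPKM / TMM factor + 1). Each point is 1 library (blue HFD, orange LYC, 3 each) and each bar the group mean. The groups lie apart for Plin2, Cidec, Abhd5, Lipe and Pnpla3 and overlap for the other 5 genes, and over all genes with a read 26.9% lie apart.

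Plin2 (chr4:86626910-86670217), the perilipin that coats droplets in the hepatocyte, was the most abundant member in every library per kilobase of transcript. HFD1, HFD2 and HFD3 held 371, 494 and 368 RPKM of it, and LYC1, LYC2 and LYC3 held 154, 303 and 211 RPKM. The lowest HFD library lay above the highest LYC library, with LYC1 the lowest of all. The means were 411 ± 71.5 RPKM in HFD (SD, n = 3) and 223 ± 75.1 RPKM in LYC (SD, n = 3), and the reads were 1910, 4104 and 580 against 115, 178 and 164. The log2 fold change on the TMM scale was -0.63 (SE 0.24, 95% interval -1.17 to -0.08), and limma gave an unadjusted p of 0.0293 and an adjusted p of 0.126. So Plin2 was lower in all 3 LYC libraries without passing the limits of a call. Groups that lie apart with LYC lower were found for 27.5% of all genes tested in RPKM as deposited and for 18.9% after TMM scaling, and Plin2 lay apart on both scales.

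Plin5 (chr17:56111597-56117606), the perilipin of oxidative tissues that ties droplets to mitochondria, was far less abundant than Plin2. The HFD values were 16.5, 15.0 and 7.42 RPKM and the LYC values 5.23, 16.6 and 16.3 RPKM, from 87, 128 and 12 reads and 4, 10 and 13 reads. The groups overlapped, with 1 low library in each (HFD3 and LYC1). For Plin5 the log2 fold change was 0.16 (SE 0.44, 95% interval -0.84 to 1.17, limma adjusted p = 0.838), and its sign turned to -0.10 when RPKM was used as deposited. The RPKM of Plin5 was 2.02% to 4.43% of that of Plin2 in the HFD libraries and 3.39% to 7.72% in the LYC libraries, ranges that overlap.

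Among the CIDE genes, Cideb (chr14:55754052-55758424), the form of hepatocytes that also serves the loading of VLDL with lipid, held most of the footprints. The HFD libraries stood at 156, 159 and 142 RPKM and the LYC libraries at 99.4, 132 and 101 RPKM. On this scale the groups lay apart with LYC lower, as for 27.5% of all genes tested, but after the TMM scaling they overlapped. The difference on the log2 scale was -0.17 (SE 0.21, 95% interval -0.66 to 0.31), with a limma adjusted p of 0.62. It was among the most even members, with the highest LYC library 1.32 times the lowest.

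Cidec (chr6:113424634-113435760), also called Fsp27, joins droplets into larger ones and is known as a gene that steatotic liver switches on. It had the widest gap between the groups of the 8 members with reads in every LYC library. It drew 8, 13 and 2 reads from HFD1, HFD2 and HFD3 but 2, 9 and 16 from LYC1, LYC2 and LYC3, although the LYC libraries were the shallower ones. As RPKM this was 1.72, 1.73 and 1.40 in HFD against 2.97, 16.9 and 22.7 in LYC, or 1.62 ± 0.184 against 14.2 ± 10.2 (SD, n = 3 each). The groups did not overlap, but LYC1, with 2 reads, lay near the HFD libraries and 7.66 times below LYC3. At the rate of the HFD libraries, 2.49 reads were expected over the 3 LYC libraries and 27 were found. The log2 fold change was 2.40 (SE 0.65, 95% interval 0.84 to 3.96, from the limma fit over all genes with a read, since the filter removed the gene from the main test). An exact two-sided permutation test over the 6 libraries gave p = 0.1, the smallest that 3 against 3 can give. Groups apart with LYC higher were found for 8.99% of the 15749 genes with a read.

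Whether Cidec was called depended on the filter and on single libraries. With no filter limma called it higher in LYC (log2 fold change 2.40, adjusted p = 0.088), as 2.81% of all genes with a read, and so did edgeR (3.36, adjusted p = 1.93e-05), as 4.68%. Without LYC1 it passed the filter and was called by limma at 3.15 (adjusted p = 0.00696), among 403 genes called higher. Without HFD1 it was called at 2.43 (adjusted p = 0.0873), among 309 genes called higher. It also passed the filter without HFD2 (2.31, adjusted p = 0.107) and without HFD3 (2.34, adjusted p = 0.123) and was not called by limma. Without LYC2 (2.16) or LYC3 (1.90) the filter removed it. In every fit where it passed the filter it did so through LYC2 and LYC3 alone, the libraries where it is high, so these calls are no independent support for a difference. The RPKM of Cidec was 0.988% to 1.10% of that of Cideb in the HFD libraries. In LYC it was 2.98%, 12.9% and 22.4% in LYC1, LYC2 and LYC3, so the balance of both CIDE genes differed most in LYC2 and LYC3. Cidea, the form of brown fat, lies on chromosome 18 and was near the limit of detection. The HFD libraries had 0, 3 and 0 reads of it and the LYC libraries 0, 0 and 1, and no fold is given.

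**Figure D2:**
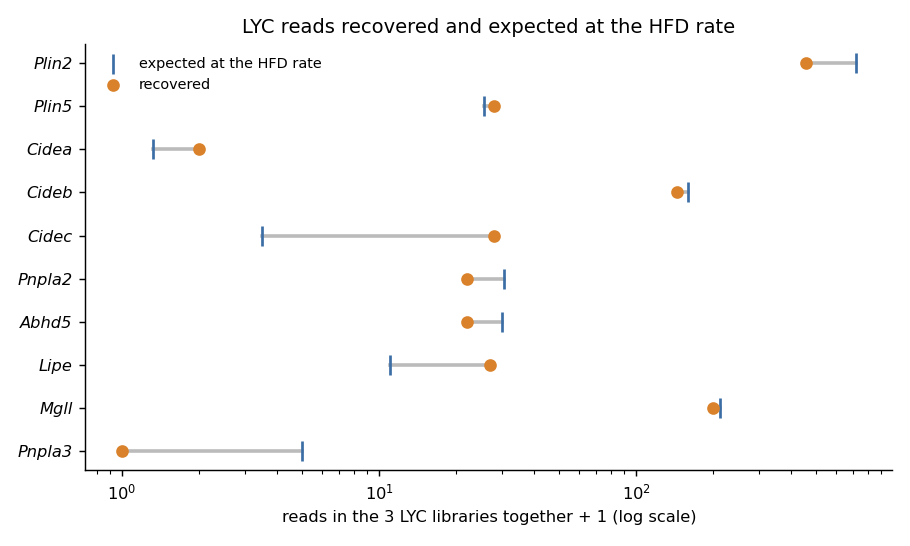
Reads of each gene in the 3 LYC libraries together (orange points) and the number expected at the rate of the HFD libraries after TMM scaling (blue ticks), each plus 1 on a log axis. Cidec had 27 reads with 2.49 expected and Lipe 26 with 10.1 expected, while Plin2 had 457 with 715 expected and Pnpla3 0 with 4.01 expected.

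Pnpla2 (chr7:141455188-141460743), the lipase of the first step, had similar levels in the HFD libraries and a wider spread in LYC. HFD1, HFD2 and HFD3 gave 11.1, 13.6 and 12.8 RPKM, while LYC1, LYC2 and LYC3 gave 9.33, 4.73 and 6.25 RPKM, from 82, 163 and 29 reads and 10, 4 and 7 reads. As deposited, all LYC values lay below all HFD values, as for 27.5% of all genes tested, and after TMM scaling LYC1 lay within the HFD range. The difference was -0.56 on the log2 scale (SE 0.36, 95% interval -1.38 to 0.25, limma adjusted p = 0.325).

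Abhd5 (chr9:122351616-122381524), which activates Pnpla2 when perilipin releases it, was the most even member among the HFD libraries in RPKM as deposited, though not after TMM scaling. Its HFD values, 12.7, 12.4 and 12.5 RPKM, were nearly equal, and its LYC values were 6.60, 9.56 and 5.41 RPKM. The LYC reads behind these values were 7, 8 and 6. All LYC libraries lay below all HFD libraries on both scales. The same was found for 27.5% of all genes tested as deposited and for 18.9% after TMM scaling. The means were 12.5 ± 0.144 RPKM in HFD and 7.19 ± 2.14 RPKM in LYC (SD, n = 3 each). LYC minus HFD was -0.49 on the log2 scale (SE 0.30, 95% interval -1.18 to 0.20) and the limma adjusted p was 0.316, so the gap did not pass the test. Abhd5 stood at 91.1% to 115% of the RPKM of Pnpla2 in HFD and at 70.7% to 202% in LYC, a range that holds the HFD values.

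Lipe (chr7:25379527-25398486), the diglyceride lipase, was higher in LYC on the TMM scale. Under HFD it stood at 4.21, 4.56 and 2.15 RPKM, and under LYC at 4.55, 10.4 and 10.5 RPKM. LYC2 and LYC3 lay above all HFD libraries, and LYC1, with 5 reads, was level with HFD2. At the rate of the HFD libraries 10.1 LYC reads were expected, where 26 were found. Its log2 fold change was 1.24 (SE 0.40, 95% interval 0.28 to 2.20, from the same fit without the filter). The groups lay apart after TMM scaling (exact two-sided permutation p = 0.1, the smallest possible), as with LYC higher for 8.99% of all genes with a read and 18.7% of those tested. As deposited they overlapped, where 9.87% of the tested genes lay apart with LYC higher. Lipe was called without LYC1 (1.52, limma adjusted p = 0.0537), among 403 genes called higher. With no filter edgeR called it too (1.41, adjusted p = 0.076), as 4.68% of all genes with a read. It was tested and not called by limma with no filter (adjusted p = 0.137), with at least 10 reads in 3 libraries (adjusted p = 0.0821), and without any of the 5 other libraries (0.99 to 1.36, adjusted p = 0.104 to 0.24). It passed the filter through LYC2 and LYC3 alone without an HFD library, and through these and HFD2 without LYC1, so the call without LYC1 rests largely on the libraries where it is high. Relative to Pnpla2, the RPKM of Lipe was 16.8% to 38.1% in HFD and 48.8%, 220% and 167% in LYC1, LYC2 and LYC3. Here too LYC2 and LYC3 were the libraries that stood off.

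Mgll (chr6:88724412-88828360), the lipase of the last step, was the most abundant lipase gene of the set. It stood at 37.8, 78.4 and 49.5 RPKM under HFD and at 33.7, 61.2 and 42.6 RPKM under LYC. The groups overlapped, and the log2 fold change was 0.05 (SE 0.28, 95% interval -0.60 to 0.69, limma adjusted p = 0.931). This interval does not reach a change of 1 on the log2 scale in either direction. The sign turned to -0.24 when RPKM was used as deposited.

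Pnpla3 (chr15:84167776-84189521) had reads in all HFD libraries and in none of the LYC libraries. HFD1, HFD2 and HFD3 had 14, 20 and 3 reads, or 1.10, 0.976 and 0.773 RPKM, and each LYC library had 0. Over the LYC libraries together a count of 0 allows up to 3 reads (counting error only), where 4.01 were expected at the HFD rate. As the second deposited table, described below, lists 1 read in LYC3, no bound on the fold is given. The groups lay apart with LYC lower, as for 17.9% of all genes with a read. With no filter limma gave it an unadjusted p of 0.000685 (adjusted p = 0.0276), and edgeR gave an unadjusted p of 0.0316 (adjusted p = 0.201). Neither called it. With 1 added before log2 and LYC at 0, an HFD mean of 0.860 RPKM after TMM scaling holds the log2 fold change within the limit of 1 (-0.89). So limma could not call it at that setting, and the missing call decides nothing. With 0.5 added instead it was -1.44, in a fit where the filter removed the gene.

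**Figure D3:**
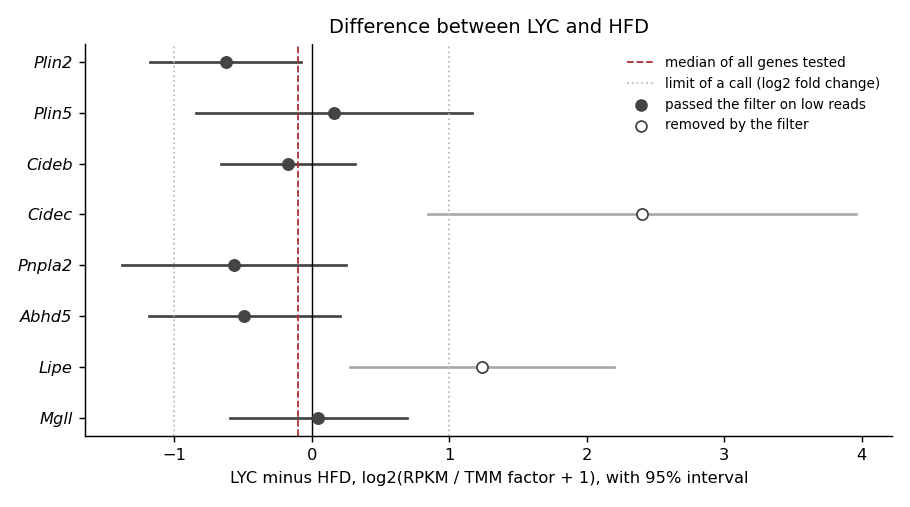
Log2 fold change of LYC against HFD for the 8 genes with reads in every LYC library (points) with its 95% interval (lines). Filled points passed the filter on low reads, open points were removed by it, the dashed line is the median of all genes tested (-0.10) and dotted lines mark the limit of a call. Intervals of open points come from the limma fit without the filter. The intervals of Plin2, Cidec and Lipe do not hold 0, and of all genes tested 29.9% had an unadjusted p below 0.05.

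By level, the order of the members in HFD was Plin2, Cideb, Mgll, then Plin5, Abhd5 and Pnpla2 together, then Lipe, Cidec, Pnpla3 and Cidea. Plin5 at 13.0 ± 4.85, Abhd5 at 12.5 ± 0.144 and Pnpla2 at 12.5 ± 1.30 RPKM (SD, n = 3 each) did not differ beyond their spread. By its LYC mean of 14.2 ± 10.2 RPKM Cidec stood at place 4 of the 10 instead of place 8, within the spread of Plin5 (12.7 ± 6.47 RPKM), a place that LYC2 and LYC3 set, since in LYC1 it lay below Pnpla2, Abhd5, Plin5 and Lipe. Lipe (8.47 ± 3.39), Abhd5 and Pnpla2 (6.77 ± 2.34) followed within each other's spread. The RPKM values divide by the whole transcript, UTRs included, and coding sequence makes up 24.1% of the length used for Mgll, 24.8% for Pnpla3 and 86.5% for Lipe. Per kilobase of coding sequence, Mgll moved to 230 in HFD, close to Cideb at 271, and the first 3 places stayed the same. Lipe, at 4.21, then lay near Pnpla3 at 3.83 and Cidec at 3.68.

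LYC1 was the lowest LYC library for 5 of the 9 members with a read in LYC after TMM scaling. These were Plin2, Plin5, Cidec, Lipe and Mgll. For Pnpla2 it was the highest, so the library was not low throughout.

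Other droplet proteins were followed in a list of 24 genes for coat, fusion and biogenesis, of which 20 were tested. None was called higher (background 6.99%) and 1 was called lower (background 6.32%), with a median log2 fold change of -0.26. Hsd17b13, a droplet enzyme of hepatocytes, stood at 182, 261 and 169 RPKM under HFD and at 107, 138 and 174 RPKM under LYC, and its groups overlapped (limma adjusted p = 0.506). The gene called was Faf2, whose protein sits on droplets, recruits the segregase p97 and binds Pnpla2. Faf2 went from 9.42, 11.3 and 9.71 RPKM under HFD to 1.76, 4.46 and 3.93 RPKM under LYC, a log2 fold change of -1.17 (limma adjusted p = 0.0563). Its LYC values rest on 16 reads, and the call was lost without HFD1, HFD2, HFD3 or LYC1 (-1.31 to -0.93 over all libraries left out). It was also lost with a pseudocount of 3 (-0.89), no filter (adjusted p = 0.111), the length correction (-0.95) and the replicate block (adjusted p = 0.0969).

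Of 22 genes for lipase regulators and other neutral lipid hydrolases, 21 were tested. By limma 1 was called higher (background 6.99%) and 0 lower (background 6.32%), and the median log2 fold change was -0.08, beside -0.10 over all genes tested. The gene that rose was Hspa8, the cognate heat shock protein that marks perilipins for chaperone-mediated autophagy and also serves many other proteins. It went from 320, 390 and 275 RPKM under HFD to 1081, 1241 and 736 RPKM under LYC, a log2 fold change of 1.91 (limma adjusted p = 0.00425). G0s2, the inhibitor of Pnpla2, had 69.6, 53.6 and 91.0 RPKM under HFD and 138, 114 and 63.3 RPKM under LYC, and its groups overlapped (log2 fold change 0.81, limma adjusted p = 0.204). Hilpda, the other inhibitor, did not pass the filter, with 17 HFD reads and 3 LYC reads.

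Of 13 transcription regulators known to act on the members, 10 were tested by limma, 0 were called higher (background 6.99%) and 2 lower (background 6.32%), with a median log2 fold change of -0.61, beside -0.10 over all genes tested. Both calls were liver X receptors, which sterols activate. Nr1h3 (LXR alpha) fell from 36.6, 50.7 and 40.1 RPKM in HFD to 8.77, 7.42 and 18.2 in LYC (log2 fold change -1.61, limma adjusted p = 0.0245). Nr1h2 (LXR beta) had 8.95, 17.5 and 22.7 RPKM under HFD and 0, 1.60 and 6.04 RPKM under LYC, a log2 fold change of -2.46 (limma adjusted p = 0.0537). The Nr1h2 values in LYC rest on 6 reads, and its call was lost without LYC1 or LYC2 and, as the filter then removed it, without HFD2 or HFD3 (-3.23 to -1.76 over all libraries left out). A pseudocount of 0.5 (adjusted p = 0.0722) and no filter (adjusted p = 0.122) ended it too. Ppara, the fatty acid sensor that drives many droplet genes, had a log2 fold change of -0.21 (limma adjusted p = 0.635), and Srebf1 -0.65 (limma adjusted p = 0.448). Pparg, which drives Cidec in steatotic liver, did not pass the filter, with 95 HFD reads and 19 LYC reads. It stood at 6.20, 7.29 and 5.40 RPKM under HFD and at 8.56, 10.9 and 9.56 RPKM under LYC, so all LYC libraries lay above all HFD libraries, as for 8.99% of all genes with a read after TMM scaling.

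**Figure D4:**
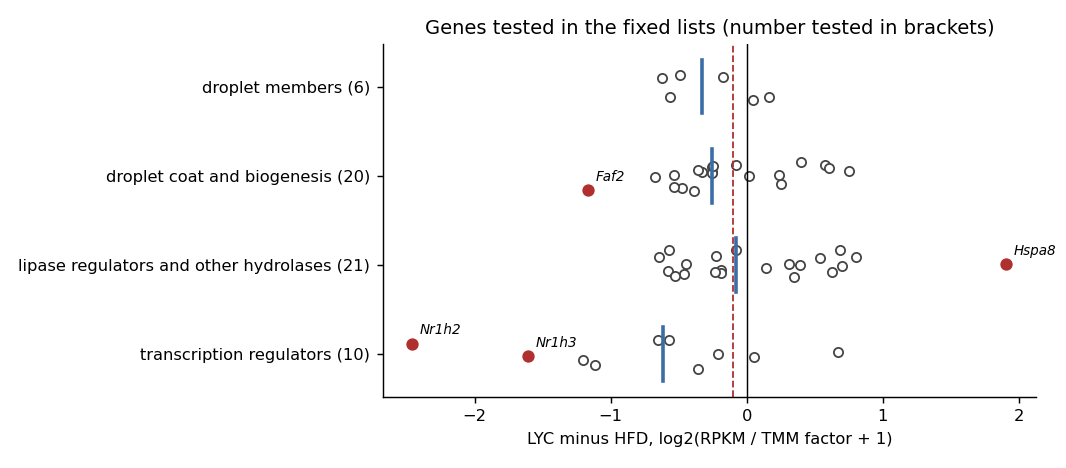
Log2 fold changes (LYC against HFD) of the tested members and of 3 lists of related genes, each point a gene and each blue bar the median. Red filled points are the 4 genes called by limma (Faf2, Hspa8, Nr1h3 and Nr1h2), none of them among the 6 tested members, and the dashed line is the median of all genes tested.

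Defining genes of other cells were set beside these values, since adipocytes express Cidec, Lipe and Plin5 strongly. All 8 hepatocyte markers were tested and 1 was called (Cps1, higher, 1.08, limma adjusted p = 0.0545), a call lost without HFD1, HFD2, HFD3, LYC1 or LYC2 (0.90 to 1.36 over all libraries left out), with total library size (0.78, adjusted p = 0.117) or with no filter (adjusted p = 0.0989). Their summed RPKM was 40014 to 44363 in HFD and 27300 to 37059 in LYC, so the tissue is liver as labelled. Of 7 adipocyte markers none passed the filter, and Lep, Retn, Plin1 and Adig were at 0 in all 6 libraries. Adipoq had 3 reads in HFD and 0 in LYC. The summed RPKM of the list was 8.22 to 15.1 in HFD and 7.45 to 28.9 in LYC, carried by Fabp4 and Cfd. Fabp4 stood at 10.8, 10.7 and 3.52 RPKM under HFD and at 7.45, 9.44 and 3.56 RPKM under LYC, from 5 LYC reads. Among the LYC libraries it was lowest in LYC3, where Cidec was highest, an order that rests on these few reads. Cfd stood at 1.92, 3.86 and 4.70 RPKM under HFD and at 0, 12.6 and 25.4 RPKM under LYC, from 11 LYC reads. Among the LYC libraries, though not among the HFD libraries, it had the order of Cidec. Of the 4 brown fat markers Ucp1 was at 0 throughout, and Elovl3, which liver expresses too, was called lower (-1.82, limma adjusted p = 0.0182), with 32.4, 25.7 and 41.3 RPKM in LYC1, LYC2 and LYC3. Cox7a1 was at 0, 4.34 and 0 RPKM under HFD and at 0, 8.78 and 13.3 RPKM under LYC, from 3 LYC reads. Among the LYC libraries it too had the order of Cidec, which Fabp4 and Elovl3 did not follow there. The part of these cells in the values of Cidec and Lipe was not tested. None of the tested markers of Kupffer cells (6 of 8 tested), stellate cells (4 of 7) and endothelial cells (5 of 6) was called by limma, where 13.3% of all tested genes were. After TMM scaling the groups lay apart for 5 of these 21 markers, as for 26.9% of all genes with a read. Pecam1 (8.11, 7.19 and 5.54 RPKM under HFD, 2.51, 2.12 and 2.40 RPKM under LYC, limma unadjusted p = 0.0119, adjusted p = 0.0748), Csf1r, Timd4 and Acta2 were lower in LYC and Marco was higher. No cholangiocyte marker of 5 passed the filter.

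A second deposited table, labelled RNA-seq, holds nearly the same reads for the genes compared here and was not taken as a measure of mRNA. The values do not show which assay the shared reads came from, and they are called footprints here by the label of the Ribo-seq table alone. Among genes with 5 to 50 reads and a transcript length that fitted both tables, 84.2% to 85.3% had the identical count in the LYC library of the same number. The HFD libraries matched crosswise: HFD1 of the Ribo-seq table fitted HFD3 of the other (41.8% identical), HFD2 fitted HFD1 (38.4%) and HFD3 fitted HFD2 (52.4%), where other pairs reached at most 5.60%. Over the 10 members and these 6 pairs, 30 of the 60 counts were identical and 56 differed by no more than the square root of the reads. The LYC library totals of that table were higher, at 673832, 582184 and 687242 reads, where the steps of the Ribo-seq table gave 394461, 311050 and 412116. Its LYC RPKM therefore lay lower for nearly the same reads, with Plin2 at 82.6, 159 and 122. Where the added reads lie was not tested. For Cidec, that table lists 14, 2 and 8 reads under HFD and 2, 9 and 16 under LYC. So its values give no second measurement of the members, and translation per mRNA was not computed. A test on its counts is given only among the alternatives below, and it is no independent check.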

How the data were processed

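Ribo-seq of mouse liver was taken from 2 deposited tables, 1 with Ribo-seq RPKM and 1 labelled RNA-seq with read counts and RPKM. The authors cleaned the reads (cutadapt, bowtie2), used STAR for alignment to mm10 (GRCm38) and FANSE2 for quantification, and deposited RPKM values per library, and per the file headers the second table also gives the counts. Versions and annotation release are not given in the sources used here. Ribo-seq reads were recovered from the RPKM steps with transcript lengths of the second table, which gave whole reads for 67.6% to 69.3% of values per library (within 0.001 read, or within the rounding of the deposited digits plus 0.0001 read where that is larger) and for all libraries of 10984 of the 15749 genes with a read. Lengths were fitted for 4764 genes and 1 was rounded, among the members for Plin5, Cidec, Lipe and Abhd5. Of the entries, 26 had names turned into dates and 4 sharing a name were left out.

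TMM factors, filterByExpr and the quasi-likelihood test came from edgeR 4.0.16, and limma 3.58.1 and DESeq2 1.42.0 were run beside it in R 4.3.3. Reads were recovered in Python 3.11.15 with pandas 2.3.3 and numpy 2.4.6, and figures drawn in matplotlib 3.10.9. On the recovered reads edgeR called 496 genes higher and 393 lower. The scripts were tested on simulated data. Groups came from the labels, and the call limits follow the results section of the study. The members and lists were chosen with earlier results of these data known. Named are all members, the called genes of the lists, marker genes at or near 0 (Lep, Retn, Plin1, Adig, Adipoq and Ucp1) and, also chosen after their values were seen, Hsd17b13, G0s2, Hilpda, Ppara, Srebf1, Pparg, Fabp4, Cfd, Cox7a1, Pecam1, Csf1r, Timd4, Acta2 and Marco. Gene positions and start codons are from RefSeq, and the coding transcripts set beside the start codons are from GENCODE M21, all on GRCm38. Alternatives were other scalings, pseudocounts, filters, limits and tests, a length correction, a replicate block and leaving out each library.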

Additional observations from a re-analysis of the deposited data

How the results depend on the processing

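Of 324 recomputed values of the 10 members and 6 called list or marker genes, 8 changed sign, 28 lost a call and 6 gained one. Scaled by total library size, 235 genes were called higher and 651 lower, the median over all genes tested was -0.36 on the log2 scale, and Plin5 (-0.10) and Mgll (-0.24) changed sign. With no filter on low reads 443 genes were called higher, 710 lower and 1 member higher (Cidec). With an unadjusted p below 0.001, 196 were called higher and 101 lower. edgeR with no filter, added after seeing the data, called 737 higher, 692 lower and 2 members, both higher (Cidec and Lipe). With each library left out in turn, 268 to 574 genes were called higher, 143 to 707 lower and 0 to 2 members. The log2 fold change then ran from -0.17 to 0.17 for Mgll (below 0 without HFD1 and LYC2), from -0.15 to 0.58 for Plin5 (below 0 without HFD3, LYC2 and LYC3) and from -0.19 to 0.69 for Cidea (below 0 without LYC3). The cause was not tested. Plin2 was called under none of the alternatives run (-0.92 to -0.55, adjusted p 0.0528 to 0.22) nor with any library left out (-0.81 to -0.48, adjusted p 0.0533 to 0.255). Counts of the other table, also added later and not independent, gave 0 called members by edgeR with its filter. This run set the end of the Plin2 range at -0.55. Same-numbered libraries share only a number (correlation of their deviations 0.108, 0.0262 and 0.00731). A replicate block gave 397 genes higher, 340 lower and 0 members, and of the 16 genes it changed the call of Faf2 alone (adjusted p = 0.0969). The alternatives planned for the table labelled RNA-seq were not run, as it is not independent. Of the 10 members, 7 (all but Plin2, Cideb and Mgll) rest on 27 or fewer LYC reads each.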
